A study of Mus musculus with 24 samples.

Results

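Oxidative phosphorylation is carried out by complexes I to V of the inner mitochondrial membrane. The genes described here are those of the nuclear genome that encode parts of these complexes in the NADH dehydrogenase (*Nduf*), succinate dehydrogenase (*Sdh*), cytochrome bc1 (*Uqcr*), cytochrome c oxidase (*Cox4* to *Cox8*) and ATP synthase (*Atp5*) families. They were matched by gene symbol alone and the rule used no measured value, although earlier results of these data were known when it was set. The rule matched 89 of the 26411 genes counted, after 2 names marked as pseudogenes were left out. These were 41 genes of complex I, 4 of complex II, 8 of complex III, 18 of complex IV and 18 of complex V. Of the 89 genes, 88 were annotated as protein-coding.

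Complexes I and II take electrons from NADH and succinate, complex III passes them to cytochrome c and complex IV passes them to oxygen. Complexes I, III and IV pump protons, and complex V uses the proton gradient to make ATP. Core catalytic subunits of complexes I, III and IV and parts of complex V are encoded in mitochondrial DNA, so that each of these complexes needs products of both genomes, whereas complex II is encoded in the nucleus only. Neural stem cells rely strongly on glycolysis, and a shift towards mitochondrial respiration is known to accompany their differentiation.

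RNA was measured in neural stem and progenitor cells (NSPCs), which are cultured cells that divide and can form neurons and glia, from the dorsal telencephalon of C57BL/6 mouse embryos at E12.5. The embryos came from matings of heterozygotes for a *Kat6a* null allele, in which deletion of 5 exons leads to a premature stop in the catalytic domain of this histone acetyltransferase. Each of the 3 genotypes, *Kat6a*+/+, *Kat6a*+/- and *Kat6a*-/-, was represented by 4 embryos after 3 days as proliferating neurospheres with FGF2 and EGF, and by 4 after 3 days of differentiation on a coated surface in medium with 1% serum, which made 24 libraries. A different RNA extraction kit served each condition, and effects of the kit cannot be told apart from those of the condition. Several embryos gave a library in both conditions.

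Library totals ranged from 7826660 to 40838203 counts. The 89 genes took 0.923% to 1.21% of the counts of a proliferating library and 0.903% to 1.33% of those of a differentiating library. The deletion leaves other *Kat6a* exons to be counted, so the gene's total count is no strict check of the genotype labels. *Kat6a* ranged from 344 to 397 CPM (read counts divided by the TMM-scaled library size, which was set within each condition) in proliferating null libraries against 378 to 405 CPM in wildtype, and from 160.4 to 249.8 CPM in differentiating null libraries against 236 to 290.2 CPM in wildtype. The differentiating null library numbered 2 had the highest of these null values and lay inside the wildtype range. The 9 neural stem and progenitor markers examined, *Sox2* and *Nes* among them, summed to 5533 to 8132 CPM in proliferating and 6539 to 12319.6 CPM in differentiating libraries, while 5 microglial markers summed to under 1 CPM in every library. The libraries labelled *Kat6a*+/+ replicate 1 carry the same embryo number in both conditions, but their reads of *Xist* and of Y-linked genes were those of opposite sexes. Several results that rest on them are therefore also given without them. Those labelled *Kat6a*+/+ replicate 2 were male with litter number 4346 in proliferating and female with litter number 4364 in differentiating NSPCs. The labels, and with them the litter term, were used as given. By the same reads, 3 of 4 wildtype embryos but 1 of 4 null and 1 of 4 heterozygous embryos were male in each condition.

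Promoter sequence is shown for 5 members because their genes are described below and because promoters of this gene family are known to hold sites for the factors NRF1 and GABPA. A window of 300 bases, from 250 before to 50 after the annotated start, was found in RefSeq (GRCm38.p6) for 71 of the 89 genes. On either strand, the NRF1 motif (GCGCA and GCGC with any 1 base between them) was found in 17 of these 71 windows (23.9%), against 6.84% of the 16852 protein-coding genes with such a window. The ETS motif CCGGAAG, which GABPA recognises, was found in 16 (22.5%) against 12.2%, and the YY1 motif AAGATGGC in 9 (12.7%) against 3.29%. At least 1 of the 3 motifs was found in 37 members (52.1%) against 20.1%. These matches describe the letters of the windows and not bound sites. The 5 members were taken from those with a motif upstream of the start, and others described below, such as *Ndufa4*, *Cox5b* and *Cox6b2*, had none there. Each stretch has 120 bases, read 5′ to 3′ on the gene's strand (the minus strand in all 5). It lies at -120 to -1 from the start, except in *Atp5if1*, where it lies at -171 to -52. The ETS motif is in capitals in *Atp5f1e* and *Uqcr11* and the NRF1 motif in *Atp5me*, *Atp5if1* and *Sdha*.
Atp5f1e, chr2:174464102-174464221: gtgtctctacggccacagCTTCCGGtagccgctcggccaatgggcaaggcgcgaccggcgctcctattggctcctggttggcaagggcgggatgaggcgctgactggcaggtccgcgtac
Uqcr11, chr10:80406822-80406941: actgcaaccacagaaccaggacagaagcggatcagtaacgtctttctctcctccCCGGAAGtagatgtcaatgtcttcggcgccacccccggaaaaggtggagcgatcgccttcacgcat
Atp5me, chr5:108434400-108434519: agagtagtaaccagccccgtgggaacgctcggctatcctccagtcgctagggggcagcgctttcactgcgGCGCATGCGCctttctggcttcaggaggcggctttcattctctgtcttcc
Atp5if1, chr4:132535466-132535585: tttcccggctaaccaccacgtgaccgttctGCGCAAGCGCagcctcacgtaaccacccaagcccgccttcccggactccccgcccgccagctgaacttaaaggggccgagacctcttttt
Sdha, chr13:74350241-74350360: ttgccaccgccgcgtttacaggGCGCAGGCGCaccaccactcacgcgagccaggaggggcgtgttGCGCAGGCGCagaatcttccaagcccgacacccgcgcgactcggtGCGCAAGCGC

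The stretch of *Sdha* held 3 copies of the NRF1 motif. The motif was also present upstream of *Atp5if1*, the member that was called lower in proliferating null NSPCs.

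Most members were abundant and short. Their exon lengths ranged from 264 to 2927 bases with a median of 750 bases, and 58 of them were under 1000 bases. On the scale of CPM per kilobase of exon, in which genes can be compared with each other, the highest mean in proliferating wildtype NSPCs was that of *Atp5f1b*, the catalytic beta subunit of ATP synthase, at 902. It was followed by *Atp5f1a* (alpha subunit) at 479, *Atp5mc3* (proton-carrying c ring) at 434, *Cox8a* at 385 and *Cox4i1* at 342. In differentiating wildtype NSPCs, *Atp5f1b* was again highest at 753, followed by *Cox4i1* at 517, *Atp5f1a* at 490.0, *Cox8a* at 460.2 and *Cox6a1* at 458. After the filter on low counts, 81 members were tested in proliferating and 83 in differentiating NSPCs. The members *Ndufb11b*, *Ndufa11b*, *Cox8c*, *Cox7b2*, *Cox6a2* and *Cox8b* were tested in neither condition, and *Ndufa4l2* and *Cox4i2* were not tested in proliferating NSPCs. *Ndufa11b* was left out as a pseudogene by its annotation and the others for their low counts.

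The first comparison asked how the loss of *Kat6a* affected these genes in proliferating NSPCs. Of the 81 members tested, 21 were higher and 1 was lower in *Kat6a*-/- vs. *Kat6a*+/+ NSPCs at a false discovery rate (FDR) under 0.05. Of all 12276 genes tested, 16.2% were higher and 13.8% lower. The fold-changes were small and mostly of one sign: the median log2 fold-change was 0.18, against -0.0045 over all genes tested, and 76 of 81 members had a fold-change above 0, against 49.4% of all genes. The middle 50% of the members' log2 fold-changes spanned 0.16, against 0.43 for all genes. The 538 other tested genes with under 1000 bases of exon had a median of -0.09, with 47 higher and 86 lower.

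The median of the members' differences from the wildtype mean, on the log2 scale, was 0.15, 0.069, 0.22 and 0.29 in the 4 proliferating null libraries. It was -0.024, -0.073, -0.0012 and 0.10 in the 4 wildtype libraries, and 0.059, -0.037, 0.11 and 0.22 in the 4 heterozygous libraries. Of the null libraries, 3 lay above all wildtype libraries and the one numbered 2 lay inside their range. Within litters that held both genotypes, the median difference between null and wildtype was 0.11 in one litter, with 61 of 81 members above 0. It was 0.14 in the other, with 62 of 81 above 0. The first set 2 null libraries against 1 wildtype library and the second 1 against 1, so neither gives a spread between wildtype embryos.

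**Figure D1:**
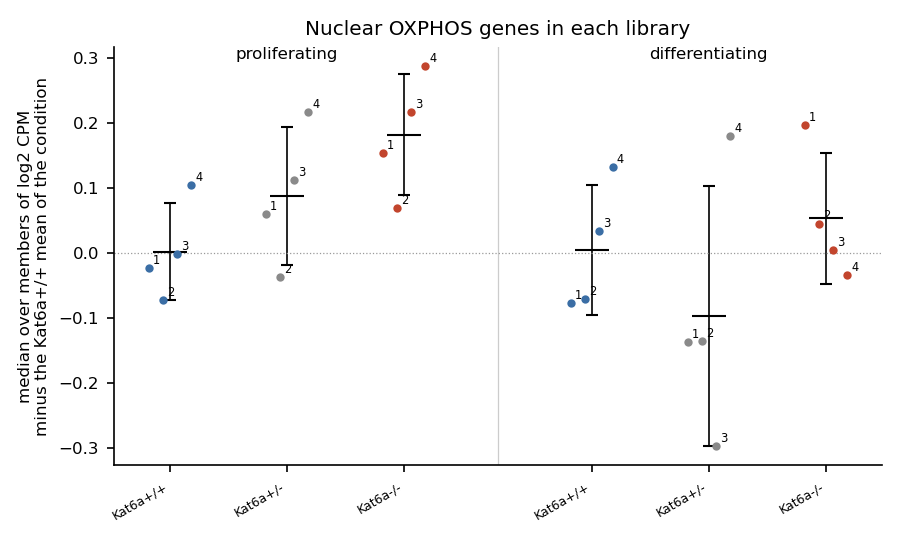
Median over the tested members of the log2 CPM minus the *Kat6a*+/+ mean of the same condition, for each of the 24 libraries (points, numbered by replicate) and as the mean ± SD of each group of 4 (bars). In proliferating NSPCs the null libraries range from 0.069 to 0.29 and the wildtype libraries from -0.073 to 0.10, while in differentiating NSPCs the groups overlap widely.

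By complex, the shift in proliferating null NSPCs was found in all 5. Of the 38 tested members of complex I, 11 were higher and 37 had a fold-change above 0, with a median of 0.19. In complex II none of 4 was called, but all 4 were above 0 (median 0.16). In complex III 3 of 8 were higher and all 8 were above 0 (median 0.19). In complex IV 3 of 13 were higher and 12 were above 0 (median 0.19). In complex V 4 of 18 were higher and 1 was lower, and 15 were above 0 (median 0.14). Complexes were assigned by gene symbol. With *Ndufa4* counted in complex IV instead, 10 of 37 members of complex I and 4 of 14 of complex IV were higher. All libraries of the null group lay above all of the wildtype group for 16 of 81 members, which is 19.8% against 15.9% of all genes tested, and no member lay below in this way (14.9% of all genes).

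**Figure D2:**
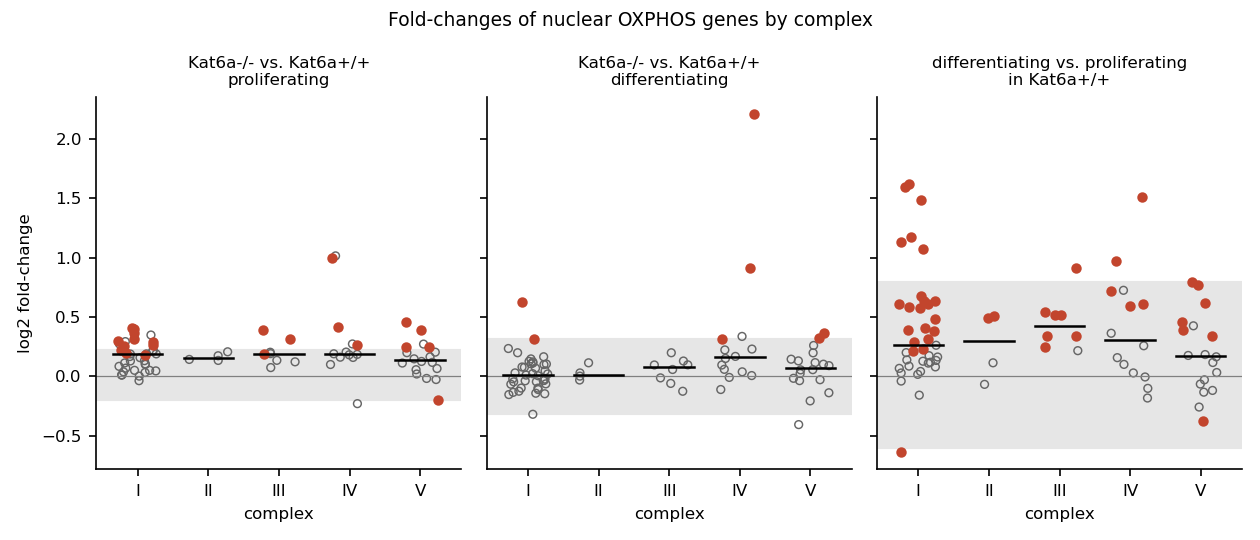
Fitted log2 fold-changes of the members by complex in *Kat6a*-/- vs. *Kat6a*+/+ proliferating NSPCs, the same in differentiating NSPCs, and differentiating vs. proliferating *Kat6a*+/+ NSPCs. Each point is a member (filled where FDR is under 0.05), black lines are medians of a complex and the grey band holds the middle 50% of all genes tested; in proliferating NSPCs the complex medians lie between 0.14 and 0.19.

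In complex I the member with the largest called change was *Ndufa4*, a protein first assigned to complex I and later found in complex IV (Entrez 17992, GRCm39 chr6:11897630-11907496). It measured 134, 117, 146 and 155 CPM in the wildtype libraries numbered 1 to 4, 150.3, 140.1, 148 and 171 CPM in the heterozygous libraries and 166, 170.2, 195 and 214 CPM in the null libraries. The null libraries lay above all wildtype libraries, while the heterozygous libraries overlapped both. Its log2 fold-change in null vs. wildtype was 0.41 (SE 0.09, FDR = 0.00507). *Ndufb2*, an accessory subunit of the membrane arm, measured 27.6, 27.7, 33.8 and 30.3 CPM in wildtype and 39.7, 36, 39.3 and 43.4 CPM in null libraries (log2 fold-change 0.40, SE 0.10, FDR = 0.00930), also without overlap. *Ndufa1*, an X-linked accessory subunit, measured 19.5, 17.1, 17.5 and 23.9 CPM in wildtype and 22.7, 22.4, 25.1 and 26.3 CPM in null libraries (0.36, SE 0.13, FDR = 0.0426). Its groups overlapped, and its call was kept under 1 of 11 other settings and without 4 of the 12 libraries in turn. The other 8 called members of complex I rose by 0.18 to 0.31 on the log2 scale. The core subunits *Ndufs1* and *Ndufv1*, chosen for their role, did not pass the test: *Ndufs1*, which carries iron-sulphur clusters, had a log2 fold-change of 0.27 (FDR = 0.0633) and *Ndufv1*, which binds NADH, one of 0.13 (FDR = 0.197).

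Complex II, which is also an enzyme of the tricarboxylic acid cycle, gave no called change. *Sdha*, the flavoprotein subunit, measured 334, 329.8, 358 and 359 CPM in wildtype and 395, 321, 399.8 and 464 CPM in null libraries. Its lowest value was that of a null library, and the groups overlapped. The log2 fold-changes were 0.14 for *Sdha* (FDR = 0.278), 0.13 for the iron-sulphur subunit *Sdhb* (FDR = 0.292), and 0.21 and 0.17 for the membrane anchors *Sdhc* (FDR = 0.0704) and *Sdhd* (FDR = 0.105).

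In complex III the 3 called members were small accessory subunits. *Uqcrb*, which binds near the quinone site (Entrez 67530, GRCm39 chr13:67048655-67053443), measured 29.1, 26.6, 33.8 and 28.1 CPM in wildtype, 31.4, 34.6, 40.5 and 34.2 CPM in heterozygous and 37.7, 37.5, 42.7 and 38 CPM in null libraries. All null libraries lay above all wildtype libraries, and 1 heterozygous library lay among the null values. Its log2 fold-change was 0.39 (SE 0.09, FDR = 0.00833). *Uqcr11*, whose promoter stretch with an ETS motif is shown above, rose by 0.32 (SE 0.09, FDR = 0.0218), with an overlap of 1 null library. *Uqcrq* rose by 0.19 (SE 0.07, FDR = 0.0471) without overlap, a call kept under 2 of 11 other settings and without 4 of the 12 libraries in turn. The core subunit *Uqcrc1* (0.14, FDR = 0.291) and the Rieske iron-sulphur protein *Uqcrfs1* (0.07, FDR = 0.444) did not pass the test.

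In complex IV, *Cox6b2*, the isoform of subunit 6b known from testis, had the largest called fold-change of any member (Entrez 333182, GRCm39 chr7:4754789-4756093). It measured 7.23, 6.86, 6.5 and 6.81 CPM in wildtype, 11.4, 8.31, 10.3 and 24.5 CPM in heterozygous and 17, 9.57, 11.5 and 21.4 CPM in null libraries. Every null and every heterozygous library lay above the wildtype libraries, which were tightly grouped. The log2 fold-change in null vs. wildtype was 1.00 (SE 0.26, FDR = 0.0132). *Cox5b*, a zinc-binding structural subunit, measured 25.7, 28.6, 28.4 and 37.5 CPM in wildtype and 35.5, 35.7, 43.7 and 38.4 CPM in null libraries (0.42, SE 0.11, FDR = 0.0120), where 1 wildtype library lay among the null values. *Cox5a*, another structural subunit, rose by 0.26 (SE 0.09, FDR = 0.0487), a call kept under 5 of 11 other settings and without 4 of the 12 libraries in turn.

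The other members of complex IV chosen for their role or as isoform pairs did not pass the test in proliferating NSPCs. The isoform *Cox6b1*, which is expressed in most tissues, had a log2 fold-change of 0.18 (FDR = 0.0773), *Cox4i1* of 0.10 (FDR = 0.386), *Cox6a1* of 0.16 (FDR = 0.216), *Cox7a2* of 0.16 (FDR = 0.103) and *Cox8a* of 0.19 (FDR = 0.0789). *Cox7a1*, the isoform of heart and skeletal muscle, was scarce at 0.617, 0.902, 0.4 and 0.771 CPM in wildtype and 1.5, 0.655, 1.11 and 2.57 CPM in null libraries. Its log2 fold-change was 1.02 with an SE of 0.41 (FDR = 0.0719). *Cox7a2l*, a factor of supercomplexes of complexes III and IV, had the lowest fold-change of the members at -0.23 (SE 0.11, FDR = 0.127).

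In complex V, *Atp5f1e*, the epsilon subunit of the rotor (Entrez 67126, GRCm39 chr2:174302861-174305906), had the smallest FDR of all members. It measured 46.2, 41.5, 46.2 and 57 CPM in wildtype, 54.3, 53.9, 55.3 and 55.1 CPM in heterozygous and 61.4, 62.9, 66 and 57.6 CPM in null libraries. The null libraries lay above all others, by a narrow margin over 1 wildtype library. The log2 fold-change was 0.39 (SE 0.08, FDR = 0.00288), and its promoter stretch with an ETS motif is shown above. *Atp5me*, subunit e of the membrane part, measured 20.6, 17.1, 18.9 and 26.5 CPM in wildtype and 25, 27.7, 32.6 and 24 CPM in null libraries (0.46, SE 0.14, FDR = 0.0297), with overlap. *Atp5pf*, which encodes coupling factor 6, rose by 0.25 (SE 0.07, FDR = 0.0152) without overlap.

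The catalytic subunits did not pass the test, with log2 fold-changes of 0.02 for *Atp5f1a* (FDR = 0.872) and 0.11 for *Atp5f1b* (FDR = 0.281). Of the 3 genes that encode the same mature c-ring protein, *Atp5mc3*, the most abundant, rose by 0.25 (SE 0.09, FDR = 0.0471), whereas *Atp5mc1* had 0.27 (FDR = 0.0892) and *Atp5mc2* had -0.03 (FDR = 0.935). The call of *Atp5mc3* was kept under 5 of 11 other settings and without 3 of the 12 libraries in turn. The member that fell was *Atp5if1*, the inhibitor that stops ATP synthase from running in reverse. It measured 101, 91.2, 84.6 and 105 CPM in wildtype and 76.1, 82.8, 83.7 and 85.2 CPM in null libraries. Only 1 null library lay above the lowest wildtype library, and the log2 fold-change was -0.20 (SE 0.07, FDR = 0.0461). Its call was lost without 9 of the 12 libraries in turn, with FDR up to 0.142.

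The number of calls depended on single libraries and on the treatment of litter. It was 22 with all libraries, 7 without wildtype replicate 1 and 8 without wildtype replicate 2. It was 11, 12 and 8 without null replicates 1, 3 and 4. The share of all genes called was 30% with all libraries, and 18.7%, 22.5%, 23.6%, 26.3% and 21.6% in these fits in turn. The median of the members stayed between 0.15 and 0.20 in all 12 fits that left out a library. *Ndufa4* and *Atp5f1e* were called in each of these fits and under each of 11 other settings. *Cox5b* lost its call without wildtype replicate 1 (FDR = 0.059), and *Cox6b2* lost it without wildtype replicate 1 (FDR = 0.052) or null replicate 4 (FDR = 0.066).

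Groups of genes that work with the members were read beside them, where 16.2% of all genes tested rose and 13.8% fell. Of the 13 mRNAs encoded in mitochondrial DNA, 10 rose in proliferating null NSPCs and the median log2 fold-change was 0.59. Their summed level was 30025 to 43215 CPM in wildtype, 30385 to 52483 CPM in heterozygous and 46548 to 62327 CPM in null libraries, without overlap of null and wildtype. Among assembly factors, 2 of 16 rose for complex I, 2 of 4 for complex II, 2 of 6 for complex III, 4 of 20 for complex IV and none of 4 for complex V, and none fell. The largest of these was *Coa6*, which helps to deliver copper to complex IV (log2 fold-change 0.74, FDR = 0.00124). Of 18 genes of the tricarboxylic acid cycle 3 rose and 1 fell. Of 18 regulators of mitochondrial genes 1 rose and 3 fell, with 7 above 0 and a median log2 fold-change of -0.067. The regulator that rose was *Ppargc1a*, which encodes the coactivator PGC-1alpha (0.93, FDR = 0.00917). All 3 comparisons of proliferating NSPCs share libraries, and none of these lists was tested as a set.

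Markers of several cell types and of dividing cells moved with the genotype as well, beside the same 16.2% of all genes that rose and 13.8% that fell. Of 6 astrocyte markers, 5 were tested and 4 rose in proliferating null NSPCs. Their summed level was 723 to 941 CPM in wildtype, 844 to 1675 CPM in heterozygous and 1398 to 2165 CPM in null libraries, although the defining marker *Gfap* stayed at 1.88 to 6.69 CPM in null libraries and *Aqp4* was too low to be tested. Of 12 genes of the cell cycle 4 fell, and their summed level was 3929 to 4313 CPM in wildtype and 2229 to 3895 CPM in null libraries. Markers of the oligodendrocyte lineage, 1 of 5 of which rose, summed to 2121 to 2475 CPM in wildtype and 2486 to 2889 CPM in null libraries. The 9 neural stem and progenitor markers, 2 of which rose and 2 fell, summed to 7462 to 8132 CPM in wildtype and to 6032, 6986, 7567 and 5533 CPM in the null libraries numbered 1 to 4, of which 3 lay below the wildtype range. Of 6 tested neuronal markers 1 rose and 2 fell. In bulk RNA, more cells of a type and more RNA per cell cannot be told apart. The part of these differences in the members' levels was not tested.

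**Figure D3:**
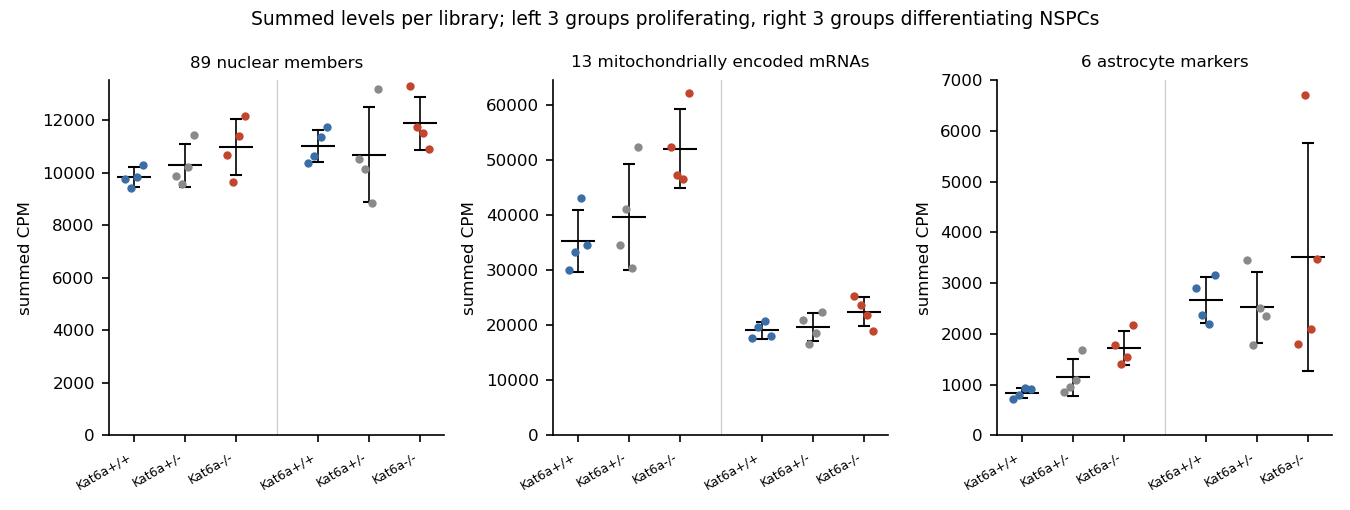
Summed CPM of the 89 members, of the 13 mRNAs encoded in mitochondrial DNA and of 6 astrocyte markers in each library (points) with the mean ± SD of each group of 4 (bars). Null and wildtype libraries do not overlap for the mitochondrial mRNAs and the astrocyte markers in proliferating NSPCs.

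In heterozygous NSPCs no member was called in either condition. In proliferating *Kat6a*+/- vs. *Kat6a*+/+ NSPCs, 0% of all genes were called by limma, and 8 of 81 members had an unadjusted p under 0.05, against 7.43% of all genes. DESeq2 and edgeR called no member either. The median log2 fold-change was 0.085, with 72 of 81 members above 0, against 49.8% of all genes. It was 0.049 without heterozygous replicate 4, with 62 of 81 above 0, and 0.045 without both libraries of the litter that held this embryo, with 58 above 0. Without wildtype replicate 1 it was 0.073, with 72 above 0. The 538 short genes outside the members had a median of 0.034. The smallest p-values belonged to *Ndufc2*, a membrane-arm subunit of complex I (0.27, FDR = 0.388), *Atp5me* (0.47, FDR = 0.442) and *Cox5b* (0.34, FDR = 0.462). *Ndufc2* measured 204, 196, 184 and 219.7 CPM in wildtype and 231, 235, 252 and 247 CPM in heterozygous libraries. It was 1 of 2 members, the other being *Cox6b2*, whose heterozygous libraries all lay above wildtype, which is 2.47% of members against 2.26% of all genes.

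In differentiating *Kat6a*+/- vs. *Kat6a*+/+ NSPCs most members had values under 0. Again 0% of all genes were called, and 6 of 83 members had an unadjusted p under 0.05 against 14.4% of all genes, with no member called by DESeq2 or edgeR. The median was -0.086, and 15 of 83 members were above 0, against 48.3% of all genes. The 625 other genes with under 1000 bases of exon, most of which were also under 0, had a median of -0.063, against -0.0070 for all genes. The median of the members was -0.18 without heterozygous replicate 4, with 3 of 83 above 0 and 24 at an unadjusted p under 0.05, and -0.20 with litter as a fixed term. The smallest p-values belonged to *Ndufa12*, an accessory subunit of complex I (-0.22, FDR = 0.227), *Uqcrh*, the hinge protein of complex III (-0.28, FDR = 0.255), and *Ndufv3*, an accessory subunit of complex I (-0.18, FDR = 0.294). The 4 heterozygous libraries spread widely, since the median difference from wildtype was -0.14, -0.14, -0.30 and 0.18.

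Null and heterozygous NSPCs were compared directly as well. In proliferating NSPCs *Ndufa4* was higher (0.27, FDR = 0.0493) and *Atp5if1* lower (-0.25, FDR = 0.0277), which is 1 member in each direction against 8.47% of all genes higher and 6.3% lower. *Ndufa10*, an accessory subunit of complex I, had the next smallest p (0.23, FDR = 0.0512). In this comparison no call was left without heterozygous replicate 1, null replicate 1 or null replicate 4. There was 1 call without heterozygous replicate 2 or 3, without wildtype replicate 1 or 3 or without null replicate 3. There were 5 without heterozygous replicate 4. The share of all genes called was 14.8% with all libraries and 17.8% without heterozygous replicate 4. It was 6.48%, 8.12% and 5.64% in the fits with no member called, in the order given.

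In differentiating NSPCs 12 of 83 members were higher and none was lower in null vs. heterozygous cells, against 19.1% and 18.5% of all genes, and the median was 0.12, with 70 of 83 members above 0 against 50.1% of all genes. The 625 short genes outside the members had a median of 0.097, with 62.6% above 0. The median of the members was 0.20 without heterozygous replicate 4, 0.064 without null replicate 2 and 0.19 with litter as a fixed term. The smallest p-values belonged to *Cox6c*, a structural subunit of complex IV (0.81, FDR = 0.00259), *Atp5mk*, a small membrane subunit of complex V (0.68, FDR = 0.00383), and *Ndufb6*, a membrane-arm subunit of complex I (0.63, FDR = 0.00388). The count was 0 without null replicate 1, 0 without null replicate 3, 19 without null replicate 2 and 27 without heterozygous replicate 4. With all libraries 37.5% of all genes were called in either direction. The shares in the fits without a library are not given, so these counts cannot be read as particular to the members. The median was -0.01 when library totals replaced the TMM scaling factors, which moved the median of all genes to -0.12.

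In differentiating *Kat6a*-/- vs. *Kat6a*+/+ NSPCs, 7 of the 83 members tested were higher and none was lower, whereas 26.7% of all genes tested were higher and 27.7% lower. This was 8.43% of members, against 54.4% of all genes in either direction, and the median size of their log2 fold-change was 0.10, against 0.32 for all genes. The median with its sign was 0.055 against -0.016 for all genes, with 53 of 83 members above 0 against 48.4% of all genes. The median was -0.10 when library totals replaced the TMM factors, which moved the median of all genes to -0.17. With totals, 4 members were called higher and 20 lower, and 62.3% of all genes were called. By complex, 2 of 39 members of complex I were higher (median 0.01), none of 4 in complex II (0.02), none of 8 in complex III (0.08), 3 of 14 in complex IV (0.16) and 2 of 18 in complex V (0.07). With *Ndufa4* and *Ndufa4l2* counted in complex IV instead, 1 of 37 members of complex I and 4 of 16 of complex IV were higher.

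The largest called change was again that of *Cox6b2*. It measured 11.8, 17.4, 13.5 and 7.29 CPM in wildtype, 12.7, 26.4, 9.7 and 32.9 CPM in heterozygous and 77.7, 7.96, 67.5 and 19.9 CPM in null libraries. The null libraries numbered 1 and 3 were far above all others, whereas number 2 lay inside the wildtype range. The log2 fold-change was 2.21 (SE 0.40, FDR = 0.000566), and it was 0.89 without null library 1 and 0.60 without null library 3. *Cox6c* (Entrez 12864, GRCm39 chr15:35923634-35938392) measured 141, 182, 158 and 171 CPM in wildtype, 171, 161, 133 and 197 CPM in heterozygous and 392, 178, 293 and 209 CPM in null libraries. The null libraries numbered 1 and 3 were again the highest, and number 2 lay inside the wildtype range (log2 fold-change 0.91, SE 0.14, FDR = 0.000155). *Ndufb6* (Entrez 230075, GRCm39 chr4:40270581-40279468) measured 49.5, 51.1, 48.9 and 54 CPM in wildtype and 101, 54.5, 76.7 and 60.2 CPM in null libraries (0.63, SE 0.11, FDR = 0.000620). The ranges did not overlap, but only by a narrow margin for null library 2.

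*Cox7a2l* measured 109, 98.4, 116 and 122 CPM in wildtype and 157, 120.4, 139 and 122 CPM in null libraries (0.32, SE 0.07, FDR = 0.00227), with the same 2 null libraries highest. *Atp5mk* rose by 0.36 (SE 0.12, FDR = 0.0239), *Atp5f1b* by 0.32 (SE 0.11, FDR = 0.0220) and *Ndufa4* by 0.31 (SE 0.12, FDR = 0.0490). *Atp5f1b* measured 1349.7, 1429, 1489.6 and 1390.4 CPM in wildtype and 2064, 1564, 1748 and 1516 CPM in null libraries, without overlap. *Ndufa4* measured 139, 138, 164 and 175 CPM in wildtype and 227, 149, 190.4 and 146 CPM in null libraries, with overlap. *Ndufa4* and *Cox6b2* were called in both conditions. All null libraries lay above all wildtype libraries for 4 of 83 members (12.2% of all genes) and below for 2 (14.7% of all genes).

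**Figure D4:**
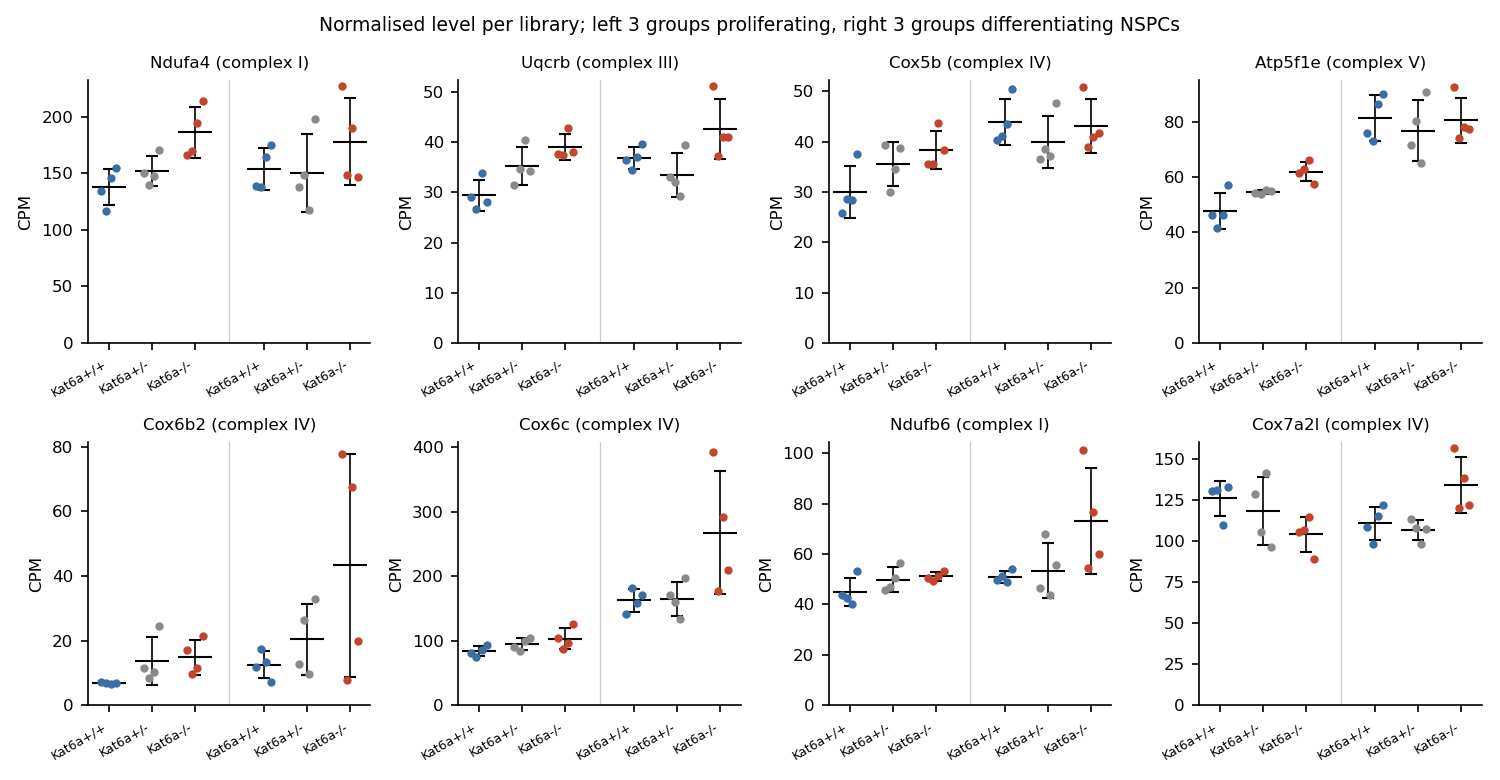
CPM of 8 members in each library of the 3 proliferating groups (left) and the 3 differentiating groups (right), with the mean ± SD of 4 libraries (bars). *Ndufa4*, *Uqcrb* and *Atp5f1e* separate null from wildtype libraries in proliferating NSPCs, and the null libraries of *Cox6b2* and *Cox6c* spread from 7.96 to 77.7 CPM and from 178 to 392 CPM in differentiating NSPCs.

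Of the other members chosen for their role, those of complex II had differentiating log2 fold-changes of -0.03 (*Sdha*), 0.00 (*Sdhb*), 0.03 (*Sdhc*) and 0.11 (*Sdhd*). In complexes I and III the values were 0.02 for *Ndufs1*, -0.15 for *Ndufv1*, -0.13 for *Uqcrc1* and -0.01 for *Uqcrfs1*. In complex IV they were 0.04 for *Cox4i1*, 0.23 for *Cox6a1* (FDR = 0.0677), 0.17 for *Cox6b1*, 0.34 for *Cox7a1*, 0.15 for *Cox7a2* and 0.06 for *Cox8a*. The isoform *Cox4i2*, known from lung and from low oxygen, had -0.11, and *Ndufa4l2*, which is known to be induced at low oxygen, had -0.32. In complex V they were -0.04 for *Atp5f1a*, 0.20 for *Atp5mc1* (FDR = 0.0808), 0.05 for *Atp5mc3* and -0.14 for *Atp5if1* (FDR = 0.143). None of these passed the test. *Atp5mc2*, which has pseudogene copies that could take some of its reads, measured 8.49, 8.98, 9.34 and 8.91 CPM in wildtype and 6.07, 6.86, 6.85 and 6.48 CPM in null libraries, without overlap, and had a log2 fold-change of -0.41 (FDR = 0.0554).

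The fit of the differentiating libraries weighted them by quality. Among the null libraries, number 3 had 69.0% of the summed weight and number 2 had 4.22%. The count of calls was 0 without null replicate 1 and 0 without null replicate 3, so that each of the 7 calls was lost in both cases, with FDR up to 0.907. The log2 fold-changes were lower as well. Without null libraries 1 and 3 in turn, that of *Atp5mk* was 0.055 and 0.078, that of *Ndufa4* 0.13 and 0.17, that of *Cox6c* 0.54 and 0.59, and that of *Ndufb6* 0.36 and 0.43. That of *Cox7a2l* was 0.21 and 0.24, and that of *Atp5f1b* 0.23 and 0.28. The count of calls was 22 (12 higher, 10 lower) without null replicate 2, 12 without null replicate 4, 13 without heterozygous replicate 4 and 4 without wildtype replicate 1. With all libraries 54.4% of all genes were called. The shares in the fits without a library are not given, so these counts cannot be read as particular to the members. The median over the members was -0.0014 without wildtype replicate 1, 0.017 without null replicate 2, 0.11 without null replicate 3 and 0.0034 with litter as a fixed term. Within litters, the median difference between null and wildtype was 0.088 in one litter (2 null libraries against 1 wildtype) and -0.12 in the other (1 against 1). Without weights, 1 member was called.

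Other gene groups differed between the same null libraries, in a comparison where 26.7% of all genes rose and 27.7% fell. Of 6 mesenchymal markers 3 were tested and all 3 rose, and their summed level was 23.2 to 57.2 CPM in wildtype and 262, 32.5, 230 and 158 CPM in the null libraries numbered 1 to 4. The defining markers *Lum*, *Dcn* and *Col3a1* stayed under 1 CPM in every library of this condition, and the sum was made up of *Col1a1* and *Foxc1* for the most part. The astrocyte markers summed to 2190 to 3165 CPM in wildtype and to 1806, 6707, 2090 and 3482 CPM in null libraries, and the genes of the cell cycle, all 12 of which fell, to 869 to 1468 CPM in wildtype and 139 to 344 CPM in null libraries. Of 7 neuronal markers 1 rose and 5 fell, with a median log2 fold-change of -2.18, although their summed levels overlapped. Of 5 tested oligodendrocyte-lineage markers 4 fell, with sums of 1173 to 1391 CPM in wildtype and 664 to 1170.0 CPM in null libraries. Endothelial markers, of which only *Kdr* was tested, summed to 45.9 to 72.4 CPM in wildtype and 9.45 to 36.6 CPM in null libraries. Of the 9 neural stem and progenitor markers 3 rose and 5 fell, and they summed to 6539 to 8209.7 CPM in wildtype and 8453 to 12319.6 CPM in null libraries. Null library 2, in which *Cox6b2* and *Cox6c* were inside the wildtype range, had the highest astrocyte and the lowest mesenchymal sum of its group. The part of these differences in the members' levels was not tested.

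Of the mRNAs encoded in mitochondrial DNA, 2 of 13 rose in differentiating null NSPCs, with a median of 0.22. Their summed level was 17700 to 20826 CPM in wildtype and 19037 to 25412 CPM in null libraries. Among assembly factors, *Coa6* rose as it did in proliferating NSPCs (0.73, FDR = 0.000162). Of all genes, 26.7% rose and 27.7% fell. For complex I 2 of 16 assembly factors rose and 5 fell, for complex II 1 of 4 rose, for complex III 1 of 6 fell, for complex IV 1 of 20 rose and 4 fell, and for complex V 1 of 4 rose. *Cycs*, which encodes cytochrome c, rose by 0.43 (FDR = 0.00858). Of 6 respiratory chain genes outside the rule 1 rose and 0 fell, with a median of 0.062. Of 19 genes of the mitochondrial membrane and of import 4 rose and 1 fell. Of the 18 regulators 1 rose and 6 fell.

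The fit of all 24 libraries asked whether the effect of the null genotype differed between conditions. The interaction passed the test for 1 of 83 members, in the direction of a higher effect in differentiating NSPCs, and for none in the other direction, against 6.37% and 7.58% of all genes. This was *Cox7a2l*, with an interaction of 0.58 on the log2 scale (SE 0.16, FDR = 0.0197). In proliferating NSPCs it measured 131, 131, 110.2 and 133 CPM in wildtype and 106, 107, 115 and 89.4 CPM in null libraries, so that 3 null libraries lay below the wildtype range, whereas in differentiating NSPCs 2 null libraries lay above it. The next smallest p-values belonged to *Atp5f1e* (-0.39, FDR = 0.0794) and *Cox5b* (-0.41, FDR = 0.101). The median interaction over the members was -0.094, against -0.00070 for all genes, and 25 of 83 members were above 0, against 49.9% of all genes. When a library was left out, the median of the members ranged from -0.18 (without differentiating null replicate 1, where that of all genes was -0.048) to -0.050 (without differentiating null replicate 4, where it was -0.0034). The lowest median of all genes was -0.066, without differentiating null replicate 2. The 637 short genes outside the members had a median interaction of 0.12, with 61.5% above 0.

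The interaction of *Cox7a2l* lost its call without wildtype replicate 2 or null replicate 1 of the differentiating libraries (FDR = 0.051 in both), without wildtype replicate 1 (FDR = 0.054) or null replicate 4 (FDR = 0.067) of the proliferating libraries, and when wildtype replicate 1 was left out of both conditions (0 members called). The count of members was 2 without differentiating wildtype replicate 2 or heterozygous replicate 2, 3 without differentiating heterozygous replicate 4 or null replicate 1, and 4 without differentiating null replicate 2 or proliferating wildtype replicate 4. It was 0 without proliferating wildtype replicate 1. With all libraries 13.9% of all genes were called in either direction. The shares in the fits without a library are not given, so these counts cannot be read as particular to the members.

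The last comparison asked how these genes differed between the conditions without the mutation. In *Kat6a*+/+ NSPCs, 41 of 83 members were higher and 2 lower in differentiating vs. proliferating cells, against 36.7% of all genes higher and 36.3% lower, or 73% in either direction. The median was 0.26 against 0.017, and 70 of 83 members were above 0 against 50.8% of all genes. In complex I 21 of 39 members rose and 1 fell, in complex II 2 of 4 rose, in complex III 7 of 8, in complex IV 5 of 14, and in complex V 6 of 18 rose and 1 fell. With *Ndufa4* and *Ndufa4l2* counted in complex IV instead, 20 of 37 rose in complex I and 6 of 16 in complex IV. The smallest p-values belonged to 3 accessory subunits of complex I. *Ndufb4c*, a copy of *Ndufb4* between which the counting could split reads, measured 6.27, 5.35, 6.8 and 5.65 CPM in proliferating and 18.4, 17.4, 18.7 and 20.2 CPM in differentiating libraries (log2 fold-change 1.62, FDR = 6.43e-11). *Ndufa1* measured 52.8, 56.9, 55.6 and 67.1 CPM in differentiating libraries, above all of the proliferating values given earlier (1.60, FDR = 1.33e-10). *Ndufa11* measured 30, 28.9, 30.1 and 34 CPM and then 64.3, 62.1, 67 and 74.6 CPM (1.14, FDR = 2.61e-10). None of the 3 overlapped between conditions. The CPM were scaled within each condition, whereas these fold-changes come from the fit of all libraries.

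The 2 members that fell with differentiation were *Ndufc2* (-0.64) and *Atp5f1c*, the gamma subunit of ATP synthase (-0.37), both named here because they were the only ones. *Atp5f1c* measured 291, 277, 283 and 287 CPM in proliferating and 206, 207, 246 and 220.4 CPM in differentiating libraries, without overlap. The mRNAs encoded in mitochondrial DNA moved the other way from most nuclear members, since 10 of 13 fell and 1 rose, with a median of -0.93. The counts were 39 to 50 in the 24 fits that left out a library, and without the libraries labelled wildtype replicate 1 in both conditions 41 members were higher and 1 was lower.

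The promoter motifs were set against the calls as a description. Of the 21 members that were higher in proliferating null NSPCs 18 had a window, and 8 of these held at least 1 of the 3 motifs (44.4%). Of the 60 tested members that were not called higher, 50 had a window and 29 held a motif (58%).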

How the data were processed

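RNA-seq of polyadenylated RNA was made from 24 libraries of 6 groups of 4 embryos, so that p-values measure the spread between embryo cultures. The authors aligned the reads to mm39 with Rsubread and deposited raw counts per gene from featureCounts with a strict RefSeq annotation, together with exon lengths. The strand setting and the treatment of reads with several matches were not stated, so members with near-identical copies are uncertain.

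Groups were taken from the labels. Protein-coding genes without *Xist* and Y-unique genes were kept where they passed filterByExpr (edgeR 4.0.16, minimum count 10, minimum total 15), and library sizes were scaled by TMM factors. Fits followed the study's methods with limma 3.58.1 in R 4.3.3, with robust moderation. Proliferating libraries were fitted by limma-voom with a random effect of litter (correlation within litters 0.287). Differentiating libraries were fitted by limma-trend on log2 CPM (prior count 2) with arrayWeights quality weights. The third fit took all 24 libraries by limma-voom with the litter block (correlation within litters 0.0036) and tested 13586 genes. It did not pair the libraries of embryos that were present in both conditions, so these were treated as separate cultures. FDR are Benjamini-Hochberg values over all genes tested. The members, lists and tests were chosen with earlier results of these data known. Members named with values were the 3 with the largest called change in each of complexes I, III, IV and V, the 4 *Sdh* genes and a list of catalytic members and isoforms, and in other comparisons the 3 with the smallest p. A result that this rule would name is not reported here. Alternatives included DESeq2 1.42.0 and edgeR. Fits were tested on simulated counts. Entrez identifiers are those of the count tables, and gene positions came from GENCODE on GRCm39. Replicates differed by more than sampling noise (chi-square per degree of freedom 5.81 or more).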

Additional observations from a re-analysis of the deposited data

Results flagged for a closer look

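In 3 of 144 groups of 4 libraries tested over the members described, 1 library stood apart by Dixon's criterion, where chance gives about 1 in 20 groups. *Cox7a2l* measured 110.2 CPM in proliferating wildtype library 3, against 131 to 133 CPM in the other wildtype libraries. *Uqcrb* measured 42.7 CPM in proliferating null library 3, against 37.5 to 38.0 CPM in the others. *Uqcrq* measured 90.2 CPM in proliferating null library 4, against 78.1 to 79.7 CPM in the others.

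The effect of the null genotype on *Cox7a2l* differed between conditions by 0.58 on the log2 scale (limma, FDR = 0.0197). *Atp5pd*, subunit d of the stalk of ATP synthase, was above all wildtype libraries in proliferating and below all of them in differentiating null libraries, but its interaction (-0.32, FDR = 0.112) did not pass the test. It was named after its values were seen.

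*Cox8b*, the isoform of subunit 8 known from muscle, was too scarce to be tested. It had 20 counts over the 4 proliferating null libraries and 1 count over the 4 wildtype libraries, and the lowest null library (0.393 CPM) was above the highest wildtype library (0.0247 CPM). These are few counts, and the difference was not tested.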

How the results depend on the processing

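The number of members called in proliferating null vs. wildtype NSPCs was 22, and it was 14 by edgeR, 14 with no litter term, 11 with sex as a term and 4 with litter as a fixed term. It was 26 with the replicate block and ranged from 7 to 24 when a library was left out. The share of all genes called was 30% in the main fit, 26.9% by edgeR and 28.6% with no litter term. It was 22.3% with sex as a term, 15.8% with litter as a fixed term and 28.7% with the replicate block. The replicate numbers did not pair the libraries, since same-numbered libraries correlated at -0.42 to 0.53 in proliferating and at -0.48 to 0.16 in differentiating NSPCs. In differentiating null vs. wildtype NSPCs the count was 7, and it was 24 with library totals, 11 with the replicate block (8 higher, 3 lower), 4 by DESeq2, 4 with no filter on low counts, 3 with sex as a term, 0 with litter as a fixed term, and 1 each by edgeR, by limma-voom with the litter block and no weights and by limma-trend without weights. It was 4 without both the weights and null replicate 2, a setting chosen after seeing the data, as was that without a pair of libraries below. The range was 0 to 22 when a library was left out. The share of all genes called was 54.4% in the main fit, 62.3% with library totals, 30.6% by DESeq2 and 24.3% by edgeR. The median log2 fold-change of the members, 0.055, turned to -0.10 with library totals and to -0.12 between 1 null and 1 wildtype library of litter 4746. It was -0.0014 without wildtype replicate 1, the lower end of a range up to 0.11.

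For null vs. heterozygous NSPCs, the 2 proliferating calls became 0 by edgeR and 0 with no litter term. They became 1 by DESeq2, with library totals, with RLE factors or with the replicate block. The range was 0 to 5 when a library was left out. The share of all genes called was 14.8% in the main fit, 7.75% by edgeR and 7.82% with no litter term. It was 12.9% by DESeq2, 15.2% with library totals, 14.8% with RLE factors and 9.64% with the replicate block. The 12 differentiating calls became 6 with library totals (5 higher, 1 lower), 5 by DESeq2, 5 with no filter, 5 without weights and null replicate 2, 2 by edgeR, 2 with sex as a term, 1 by limma-voom, 1 without weights and 0 with litter as a fixed term (range 0 to 27), and the median turned to -0.011 with library totals. The interaction, with 1 call, gave 8 with library totals (1 higher, 7 lower, with the median of all genes at -0.15), 8 with quality weights (4 higher, 4 lower) and 0 without wildtype replicate 1 of both conditions (range 0 to 4). In the main fits 37.5% of all genes were called in differentiating null vs. heterozygous NSPCs and 13.9% for the interaction. Shares under the other settings of these comparisons are not given, so their counts cannot be read as particular to the members. The replicate block moved no other count by over 1.5 times. The causes of these changes were not tested. The heterozygous comparisons with wildtype (0 calls) and the comparison of conditions (39 to 54 calls, the most with quality weights) kept their counts within that bound under all settings run. No called value of a named member changed sign under any of them, while 18 of 51 values that were not called did. Depth limits members at or under about 1 CPM, such as *Cox7a1* and *Cox8b* in proliferating NSPCs.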
